A study of Mus musculus with 6 samples.

Results

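The genes described here are 9 markers of monocytes and macrophages (Ly6c2, Ccr2, Cx3cr1, Adgre1, F13a1, Klf4, Ms4a6c, Mrc1 and Vcam1), measured in RNA from mouse bone marrow neutrophils. They were taken by symbol from a table of 51826 gene rows. All 9 were found, each under 1 gene ID. The neutrophils were isolated from bone marrow and exposed to microvesicles, membrane particles shed by cells, from the mouse hepatoma line Hepa1-6. In every library the donor cells had been deprived of glucose. In 3 libraries, called Ctrl_MV, the donors were wild type, and in 3 libraries, called KD_MV, ezrin, a linker between membrane and actin, had been knocked down in the donors. No library of neutrophils without vesicles is among the samples. The sources used here give no strain, sex or age of the mice, no dose or time of exposure, no knockdown method and no word on pooling of marrow. The labels name no batch either, and how cells were prepared for each group cannot be told apart from which vesicles they received.

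Monocytes and macrophages arise in the marrow beside neutrophils, from shared granulocyte-monocyte precursors. Classical monocytes carry Ly6C and the chemokine receptor CCR2, through which they leave the marrow. Patrolling monocytes carry little Ly6C and much CX3CR1, and resident macrophages carry surface proteins such as the F4/80 antigen (Adgre1), the mannose receptor (Mrc1) and, in marrow, VCAM-1. A purified neutrophil sample is usually checked for such cells by these markers, although several of the genes are also used by other blood or vessel cells.

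Total counts ran from 37346055 to 42043434 per library. Hemoglobin transcripts took 8.96 to 10.6% of counts in Ctrl_MV and 1.02 to 1.18% in KD_MV. The levels in this paragraph are the authors' TPM values, a measure scaled for gene length and library size. These do not follow the deposited counts by a fixed length per gene. Genes named for these levels were chosen after their values were seen. S100a8 and S100a9, the calprotectin subunits, stood at 1117 to 2369 and 2183 to 4581 TPM, and Csf3r, the G-CSF receptor, at 109.9 to 162.5 TPM. Ly6g, the antigen most used to sort mouse neutrophils, stood at 3.13 to 4.55 TPM, Cxcr2, a receptor of mature neutrophils, at 3.001 to 4.493 TPM, and Retnlg at 1.34 to 8.84 TPM. In the same libraries Csf1r, the receptor for the macrophage growth factor, stood at 104.3 to 135.8 TPM, Cd68, a lysosomal protein abundant in macrophages, at 1038 to 1660 TPM and Mpeg1, a pore-forming protein of phagocytes, at 1146 to 1687 TPM. Genes of neutrophils and genes abundant in macrophages were thus both found above 100 TPM. Ly6g was below every library's value for Ms4a6c and above every value for Ccr2 and Mrc1. In the gene lists used below, 0 of 20 neutrophil genes averaged under 1 TPM in both groups. The same held for 1 of 26 classical monocyte genes and 12 of 26 resident macrophage genes. What each cell type contributed to these levels was not tested.

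Upstream sequences are shown for 4 of the markers, a pair that was higher with knockdown vesicles (Ly6c2 and F13a1), one near 0 (Mrc1) and one that was lower (Klf4). RefSeq promoters on GRCm38.p6, the assembly of mm10, were matched by symbol for 7 of the 9 genes. Each sequence is the 250 bases before the gene's first listed start, 5′ to 3′ on the gene's strand, and capitals mark matches to the searched motifs.
Ly6c2 (chr15:75111972-75112221, minus strand): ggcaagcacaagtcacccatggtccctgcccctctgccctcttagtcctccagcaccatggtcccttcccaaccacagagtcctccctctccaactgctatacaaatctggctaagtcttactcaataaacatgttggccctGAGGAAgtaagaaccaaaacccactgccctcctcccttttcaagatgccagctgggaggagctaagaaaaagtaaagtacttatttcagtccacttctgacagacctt
F13a1 (chr13:37050245-37050494, minus strand): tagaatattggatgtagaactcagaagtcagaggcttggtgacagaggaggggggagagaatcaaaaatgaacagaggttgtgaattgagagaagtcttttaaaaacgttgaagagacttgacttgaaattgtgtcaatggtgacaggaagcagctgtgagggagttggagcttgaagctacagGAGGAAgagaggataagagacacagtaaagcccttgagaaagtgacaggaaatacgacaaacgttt
Mrc1 (chr2:14229164-14229413, plus strand): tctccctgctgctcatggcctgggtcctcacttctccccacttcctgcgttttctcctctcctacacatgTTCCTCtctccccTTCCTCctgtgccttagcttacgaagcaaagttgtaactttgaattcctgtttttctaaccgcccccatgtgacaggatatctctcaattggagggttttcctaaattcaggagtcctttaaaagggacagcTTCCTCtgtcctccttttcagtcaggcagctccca
Klf4 (chr4:55532476-55532725, minus strand): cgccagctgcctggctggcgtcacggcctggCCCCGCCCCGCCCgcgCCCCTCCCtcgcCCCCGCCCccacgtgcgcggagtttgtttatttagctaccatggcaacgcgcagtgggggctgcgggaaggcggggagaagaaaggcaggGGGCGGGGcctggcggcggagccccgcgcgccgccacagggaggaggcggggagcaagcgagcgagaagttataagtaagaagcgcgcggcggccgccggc

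Exact matches were searched on both strands to GAGGAA for PU.1 (Spi1), the factor that myeloid lineages depend on, to TTGCNNAA for C/EBP, to a pair of GAAA blocks 2 bases apart for IRF and to GGGNGGGG for KLF. GAGGAA was found in 23.3% of the 32851 mouse promoters of this length, TTGCNNAA in 9.6%, the IRF pattern in 3% and GGGNGGGG in 30.8%. In the sequences above, GAGGAA occurred once in Ly6c2, starting 108 bases before the start, and once in F13a1, starting 66 bases before it. Mrc1 held 3 matches to its reverse complement. Klf4 held 5 matches to GGGNGGGG, some of them overlapping. The windows of Ccr2 and Cx3cr1 held none of the 4 motifs. That of Ms4a6c, not shown above, held 6 matches to GGGNGGGG on the reverse strand, all overlapping in a single run of C. These counts are for the first listed start of each gene. Before the second listed start, the window of Ly6c2 held 2 matches to GAGGAA and that of F13a1 held 0. For the Ly6c2 and Klf4 starts shown, the bases that follow were not found in the gene's transcripts. Whether any match bears on the level of a marker was not tested.

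By TPM, the order of the markers was wide and partly different between the groups. In Ctrl_MV the highest was Adgre1 (270.2 to 324 TPM), then Ly6c2 (143.9 to 230 TPM) and Ms4a6c (48.2 to 53.9 TPM). Vcam1 (2.88 to 3.71 TPM) and Klf4 (3.07 to 3.37 TPM) came next with overlapping ranges, followed by F13a1 (0.929 to 1.22 TPM) and Cx3cr1 (0.912 to 1.117 TPM), whose ranges also overlapped. Ccr2 (0.114 to 0.704 TPM) and Mrc1 (0.0347 to 0.0732 TPM) were the lowest. In KD_MV the order was Ly6c2, Adgre1, Ms4a6c, Vcam1, F13a1, Cx3cr1, Klf4, Ccr2 and Mrc1, with no overlap between neighbours in that order. Adgre1 was 1.41, 1.61 and 1.97 times Ly6c2 by TPM in Ctrl_MV replicates 1, 2 and 3, and 0.493, 0.589 and 0.298 times in KD_MV replicates 1, 2 and 3. Among all 51826 genes, Adgre1 ranked 377 by mean TPM in Ctrl_MV and 692 in KD_MV, whereas Mrc1 ranked 20810 and 21110.

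**Figure D1:**
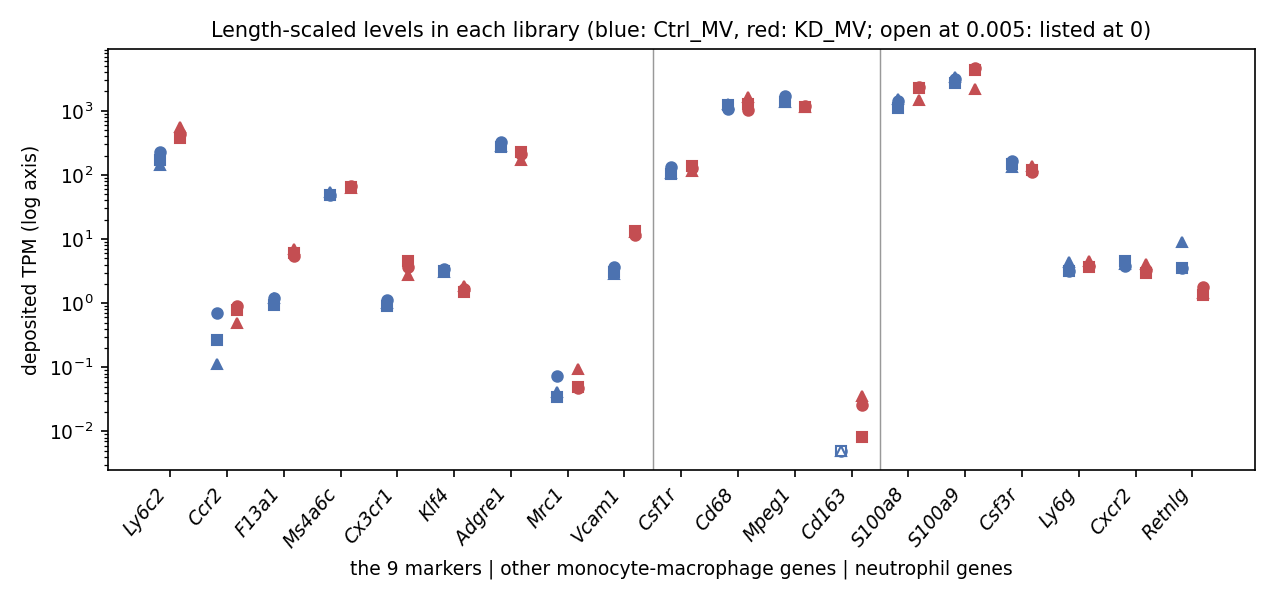
Deposited TPM on a log axis for the 9 markers, 4 other monocyte-macrophage genes and 6 neutrophil genes, with 1 point per library, blue for Ctrl_MV and red for KD_MV. Adgre1, Ly6c2 and Ms4a6c lie far above the other markers, Mrc1 and Cd163 lie at the bottom, and Ly6g lies near 4 TPM.

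The comparison between groups asked whether marker levels differed with the kind of vesicle. Of the 9 markers 8 passed the filter on low counts, and 4 of them were higher in KD_MV (Ly6c2, F13a1, Cx3cr1 and Vcam1), 3 were lower (Klf4, Adgre1 and Ms4a6c) and 1 was not called (Ccr2), in edgeR's quasi-likelihood test at an adjusted p of 0.05. Mrc1 had too few counts to be tested. Over all 16071 genes tested 52.6% were called, 27.8% higher and 24.9% lower, so that calls in both directions were also common among genes at large. The groups did not overlap for 7 of the 8 tested markers, against 61.3% of all tested genes. The median log2 fold change, KD_MV minus Ctrl_MV, was 0.67 over the 8 tested markers and 0.03 over all tested genes. Scaled by library size only, these medians were 1.08 and 0.43. The marker values lay on both sides of 0, and the summed level of the 9 markers was lower in KD_MV. It was 809 to 957.9 CPM in Ctrl_MV and 555.4 to 616.4 CPM in KD_MV. In RNA from whole samples, fewer cells of a type and less RNA per cell cannot be told apart. Nothing in the labels ties a replicate to its own mouse or culture, and the p-values then measure only the spread among these libraries, which may be technical.

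**Figure D2:**
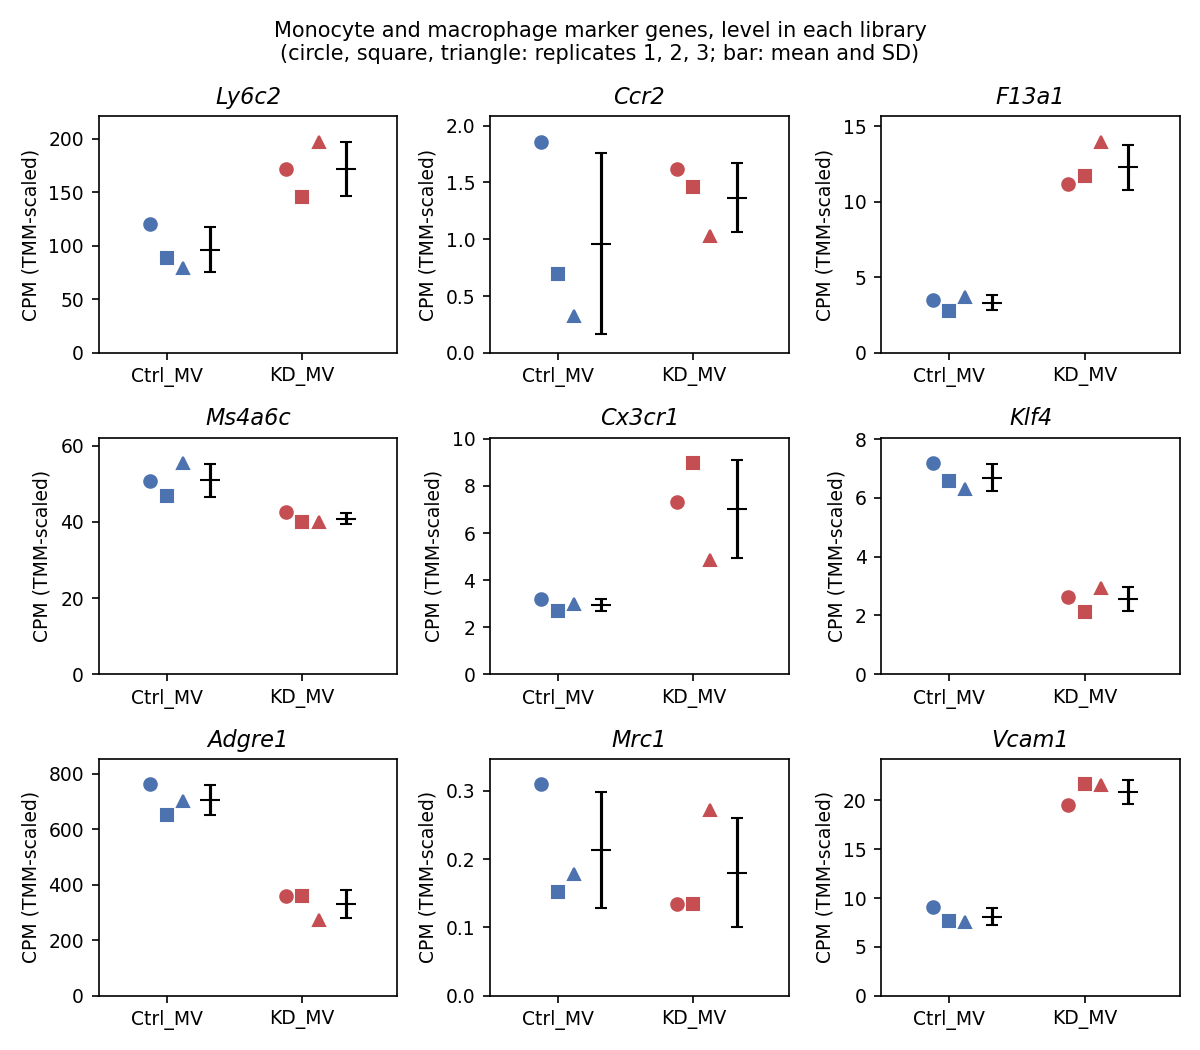
Level of each marker in CPM, counts scaled by library size and TMM factors, in the 3 Ctrl_MV and 3 KD_MV libraries, with the mean and SD beside the points. Ly6c2, F13a1, Cx3cr1 and Vcam1 are higher in every KD_MV library, Adgre1, Klf4 and, by less, Ms4a6c are lower in every one, and Ccr2 and Mrc1 overlap.

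Among the classical monocyte markers, Ly6c2 encodes Ly6C, a lipid-anchored surface protein of monocytes that is also found on other marrow cells (chromosome 15, 75108158 to 75111970, mm10). In replicates 1 to 3, its level was 120.4, 89.1 and 79.8 CPM with Ctrl_MV and 172.2, 146.2 and 197.5 CPM with KD_MV. Each KD_MV library lay above each Ctrl_MV library. The means were 96.4 ± 21.3 and 172.0 ± 25.6 CPM (SD, n = 3 per group), and the log2 fold change of Ly6c2 was 0.83 ± 0.17 (SE), with an adjusted p of 0.00327 by edgeR. Its neighbour in the family, Ly6c1, shares long stretches of sequence with it. Of the 50-base windows of Ly6c2 transcripts 30.8% also occur in Ly6c1, and of the 100-base windows 14.9%, so the split of reads between them is uncertain. Ly6c1 rose as well (log2 fold change 1.15 ± 0.16 (SE), adjusted p = 4.21e-04 by edgeR), from 7.28 ± 1.28 to 16.1 ± 1.74 CPM (SD, n = 3 per group). With the counts of both genes summed, the log2 fold change was 0.86 (adjusted p = 0.0017), a setting chosen after seeing the data. Ly6a, the stem-cell antigen Sca-1 of the same family, rose too (log2 fold change 1.67 ± 0.14 (SE), adjusted p = 2.49e-05), and Ly6g was not called (-0.30 ± 0.21 (SE), adjusted p = 0.261).

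Ccr2, the receptor for the chemokine CCL2 (chromosome 9, 124101950 to 124113557), had few counts. Replicates 1 to 3 had 60, 23 and 11 counts with Ctrl_MV and 72, 65 and 49 counts with KD_MV. The exact 95% Poisson interval, for counting error only, was 45.8 to 77.2 for the count in Ctrl_MV replicate 1 and 5.49 to 19.7 for that in replicate 3, so that the Ctrl_MV libraries differed among themselves. The difference between groups was not called (log2 fold change 0.51 ± 0.52 (SE), 95% interval -0.67 to 1.69, adjusted p = 0.439). Ctrl_MV replicate 1 decided this value: without it the log2 fold change of Ccr2 was 1.41 and the adjusted p 0.0262, and without any other single library the log2 fold change was 0.10 to 0.68 and the gene was not called. The gene of its ligand, Ccl2, stood at 158.2 ± 14.8 CPM in Ctrl_MV and at 96.2 ± 6.64 CPM in KD_MV. Ccl2 was called lower (-0.72 ± 0.11 (SE) on the log2 scale, adjusted p = 5.53e-04), also with library size only (-0.315, adjusted p = 0.0273). It was not called on log2(TPM + 1) (-0.15, adjusted p = 0.275). Ccl12, another CCR2 ligand gene in mouse, had 0 counts in each Ctrl_MV library and 34, 37 and 22 counts in KD_MV replicates 1, 2 and 3.

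F13a1, the A subunit of coagulation factor XIII, is made by monocytes and macrophages and by megakaryocytes (chromosome 13, 36867178 to 37050244). It showed the largest change of the 8 tested markers on the log2 scale. Its counts were 113, 91 and 124 in Ctrl_MV and 500, 521 and 668 in KD_MV, which came to 3.50, 2.75 and 3.70 CPM and to 11.2, 11.7 and 13.99 CPM. The groups were well separated, at 3.32 ± 0.496 and 12.3 ± 1.49 CPM (SD, n = 3 per group), with a log2 fold change for F13a1 of 1.89 ± 0.17 (SE) and an adjusted p of 3.65e-05. That change exceeded those of 96% of all tested genes. Megakaryocyte and platelet genes were higher in 8 of 12 tested cases and lower in 1 (median log2 fold change 1.11), with a summed level of 178 to 225.8 CPM in Ctrl_MV and 219.4 to 251.6 CPM in KD_MV. Of the 3 called genes of smallest p in this list, 1 fell. Ppbp rose from a mean of 11.1 CPM in Ctrl_MV to 46.7 CPM in KD_MV, and Pf4, platelet factor 4, from 12.1 to 27.7 CPM. Vwf, the most abundant of the 3, fell from 94.0 to 35.5 CPM. The part of megakaryocytes and platelets in the F13a1 value was not tested.

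Ms4a6c, a membrane protein of the MS4A family found in monocytes and macrophages (chromosome 19, 11469366 to 11482192), had a small difference whose direction depended on the scaling and the measure. It stood at 50.6, 46.9 and 55.5 CPM in Ctrl_MV and at 42.5, 40.1 and 39.9 CPM in KD_MV, with no overlap on this scale. The log2 fold change of Ms4a6c was -0.32 ± 0.10 (SE), with an adjusted p of 0.0277. Scaled by library size alone, it was 0.08 (adjusted p = 0.496), and on log2(TPM + 1) with limma it was 0.37 (adjusted p = 0.009). In other settings the call was lost while the log2 fold change stayed negative. It was -0.26 with no filter (adjusted p = 0.105) and -0.32 with a replicate block (adjusted p = 0.0635). Without Ctrl_MV replicate 1 or 3 it was -0.32 and -0.26 (adjusted p = 0.0585 and 0.106), and without KD_MV replicate 1 or 2 it was -0.35 and -0.31 (adjusted p = 0.0537 and 0.0938). The gene shares 1088 exonic bases with BE692007, a gene on the opposite strand that had 1306 to 1732 counts per library. No source used here states whether counting used the strand, so reads of the overlap may lie with either gene. Of its family, Ms4a6d fell (log2 fold change -0.77 ± 0.10 (SE), adjusted p = 2.78e-04), also with library size only (-0.36, adjusted p = 0.0124). On log2(TPM + 1) Ms4a6d was not called (-0.19, adjusted p = 0.114). Ms4a6b (-0.19 ± 0.11 (SE), adjusted p = 0.177) and Ms4a4c (-0.07 ± 0.12 (SE), adjusted p = 0.642) were not called, and on log2(TPM + 1) both were higher (0.34 and 0.50).

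Cx3cr1, the fractalkine receptor, is high on patrolling monocytes and is also found on natural killer cells and many tissue macrophages (chromosome 9, 119901616 to 120069879). It had 103, 89 and 100 counts in Ctrl_MV and 326, 400 and 231 counts in KD_MV. As CPM these were 3.19, 2.69 and 2.98 in Ctrl_MV and 7.31, 8.97 and 4.84 in KD_MV. Every KD_MV library was above every Ctrl_MV library, but KD_MV replicate 3 was closer to the controls than the other two. The log2 fold change of Cx3cr1 was 1.25 ± 0.23 (SE), with an adjusted p of 0.00207. Cx3cl1, the gene of its ligand, was not called (log2 fold change 1.7035 ± 0.71 (SE), adjusted p = 0.0739), at means of 0.132 and 0.435 CPM, and was called higher with library size only (2.10, adjusted p = 0.0308). T and natural killer cell genes were called in 3 of 12 cases, 2 higher and 1 lower, against 5 higher and 0 lower with library size only and 6 higher and 0 lower of 10 on log2(TPM + 1). They had a summed level of 78.3 to 91.8 CPM in Ctrl_MV and 93.6 to 107.2 CPM in KD_MV. Their part in the Cx3cr1 value was not tested.

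Klf4, a zinc-finger transcription factor needed for the making of Ly6C-bearing monocytes (chromosome 4, 55527143 to 55532466), went the opposite way. It had 7.18, 6.57 and 6.29 CPM in Ctrl_MV and 2.62, 2.13 and 2.93 CPM in KD_MV. The highest KD_MV library had less than any Ctrl_MV library. The log2 fold change of Klf4 was -1.38 ± 0.17 (SE), a 2.6-fold lower level, with an adjusted p of 2.31e-04, and it remained called lower in each of 18 alternative settings (log2 fold change -1.49 to -0.66). Its relative Klf6 fell as well (-1.58 ± 0.11 (SE), adjusted p = 1.10e-05). Klf2 was not called (-0.01 ± 0.10 (SE), adjusted p = 0.915), but was higher with library size only (0.39) and on log2(TPM + 1) (0.55).

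Among the macrophage surface genes, Adgre1 encodes the F4/80 antigen, an adhesion receptor of mouse macrophages that eosinophils also carry (chromosome 17, 57358686 to 57483529). It held most of the summed level of the 9 markers, 79.5 to 81.8% of their CPM in Ctrl_MV and 49.2 to 60.9% in KD_MV. Replicates 1 to 3 had 761.8, 652.5 and 700.5 CPM of Adgre1 with Ctrl_MV and 359.3, 361.1 and 273.4 CPM with KD_MV. The groups were far apart, the lowest Ctrl_MV library having more than the highest KD_MV library. The log2 fold change of Adgre1 was -1.09 ± 0.13 (SE), a 2.13-fold lower level, with an adjusted p of 1.97e-04. It was called lower in each of 18 alternative settings (-1.15 to -0.53). The summed CPM of the other 8 markers went the other way, from 156.2 to 196.2 in Ctrl_MV to 232.3 to 282 in KD_MV, most of it Ly6c2. Eosinophil genes were higher in 7 of 11 cases and lower in 1 (median log2 fold change 3.54), at 74.5 to 76.5 CPM in sum in Ctrl_MV and 522.2 to 704.1 CPM in KD_MV. Their part in the Adgre1 value was not tested.

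Mrc1, the mannose receptor CD206 of resident and alternatively activated macrophages (chromosome 2, 14229392 to 14332057), was barely detected. It had 10, 5 and 6 counts in Ctrl_MV and 6, 6 and 13 counts in KD_MV. The summed counts were 21 (exact 95% Poisson interval 13 to 32.1) and 25 (16.2 to 36.9), and the libraries overlapped. With no filter on low counts, the log2 fold change of Mrc1 was -0.17 and the adjusted p 0.849, so a difference was not detectable at this depth.

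Vcam1 encodes VCAM-1, a ligand of the integrin of α4 and β1 chains, and is made by marrow macrophages, stromal cells and activated vessel wall (chromosome 3, 116109949 to 116129688). It had 9.10, 7.66 and 7.51 CPM in Ctrl_MV and 19.5, 21.6 and 21.6 CPM in KD_MV. Both groups were tight, at 8.09 ± 0.88 and 20.9 ± 1.21 CPM (SD, n = 3 per group), and did not overlap. The log2 fold change of Vcam1 was 1.37 ± 0.13 (SE), a 2.58-fold higher level, with an adjusted p of 4.68e-05. The integrin genes Itga4 (-0.75 ± 0.15 (SE), adjusted p = 0.00338) and Itgb1 (-0.42 ± 0.10 (SE), adjusted p = 0.0063) were lower, but neither was called with library size only (-0.35 and -0.02), and on log2(TPM + 1) Itgb1 turned to 0.19. Of 16 endothelial and stromal genes 8 passed the filter, with 1 called higher (Cdh5, a junction protein of vessel wall, at 0.173 ± 0.0665 and 1.19 ± 0.225 CPM) and 3 lower. Among the lower ones were Col1a1, a collagen gene (means of 28.4 and 5.84 CPM), and Pecam1 (63.8 and 45.9 CPM). With library size only, 2 of the 8 were higher and 1 lower, and Pecam1 was not called (-0.07). The summed level of the 16 genes was 98.2 to 109.2 CPM in Ctrl_MV and 58.9 to 67.5 CPM in KD_MV. Pdgfra was at 0 counts in all libraries, and Cxcl12 and Emcn, chosen after their values were seen, were at 0 in Ctrl_MV. The part of vessel and stromal cells in the Vcam1 value was not tested.

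**Figure D3:**
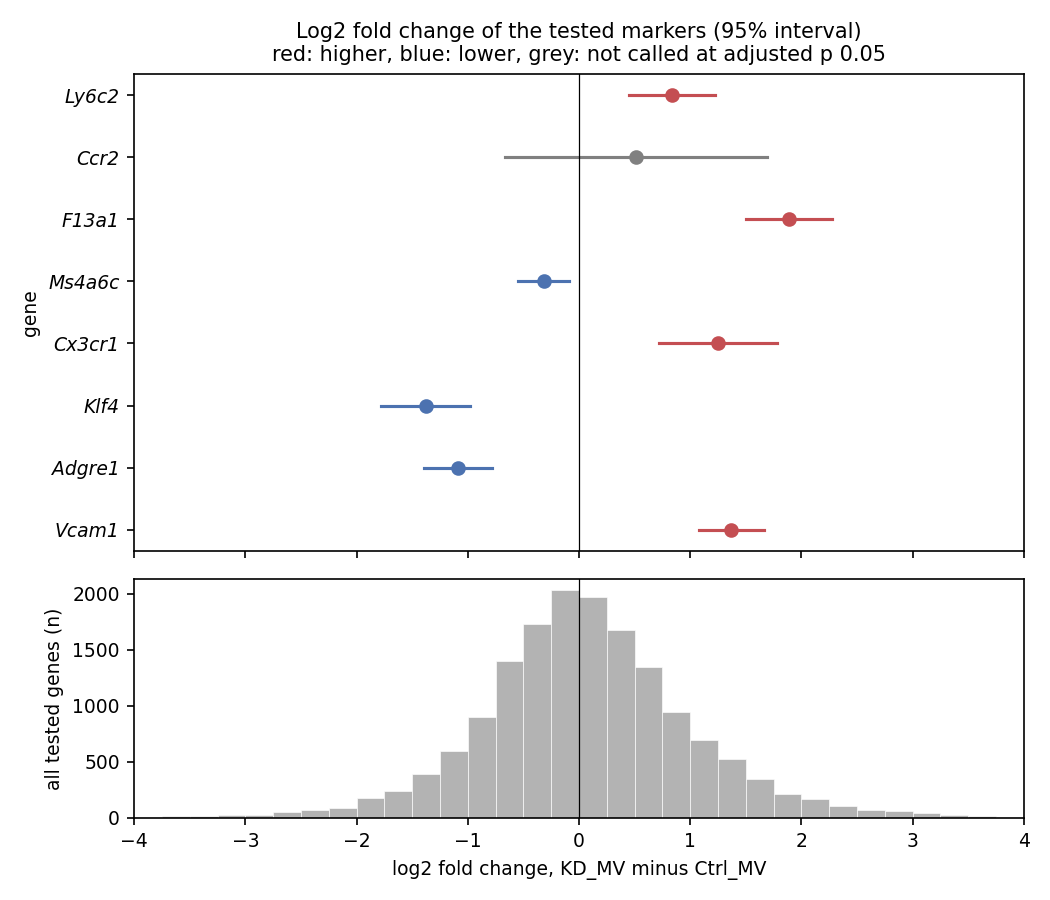
Upper panel, log2 fold change (KD_MV minus Ctrl_MV) of the 8 tested markers with 95% intervals. Lower panel, number of tested genes in bins of log2 fold change for all 16071 genes. F13a1 at 1.89 and Klf4 at -1.38 mark the ends of the range, and only the interval of Ccr2 spans 0.

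The genes whose levels were most like each marker over the 6 libraries were taken by Pearson's r of log2 CPM. The search covered 9595 genes with a mean of at least 5 CPM, after genes with clone names (such as Gm and Rik) and mitochondrial genes were removed. It was done for the 5 markers at that level, and where a marker and another gene both differ between groups, that difference alone gives a high r. Adgre1 was most like Slc20a1, Ier5 and Syngr1 (r = 0.9995 to 0.9996), Vcam1 like Plxnb2, Ago1 and Tnk2 (0.9992 to 0.9999), and F13a1 like Brip1, Hsp90aa1 and Cep76 (0.9989 to 0.9991). Ly6c2 was most like Gtf3c1, Immt and Syt11 (0.9864 to 0.9881), and Ms4a6c like Mfsd14b, Rab7b and Ugcg (0.9887 to 0.992).

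Other genes of the monocyte and macrophage lineage also moved both ways. Of 26 further classical monocyte genes 7 were higher and 11 lower (median log2 fold change -0.20, and 0.20 with library size only). The 3 called genes of smallest p were all lower: the chemokine receptor gene Ccr1 (-1.48), the galectin gene Lgals3 (-1.37) and the lectin gene Clec4a3 (-1.02). Of 18 genes of patrolling monocytes 17 were tested, with 4 higher and 9 lower (median -0.37, and 0.03 with library size only), including the integrin gene Itgax (-1.53), Cd300ld (-1.18) and the tetraspanin gene Cd9 (-1.42). With library size only, the counts were 11 higher and 8 lower for the classical genes and 5 and 5 for the patrolling genes. On log2(TPM + 1) they were 13 higher and 6 lower of 25, and 5 higher and 3 lower of 16. Genes called higher in both of these settings, chosen after their values were seen, included Chil3 and Tifab (classical) and Spn and Adgre4 (patrolling). Their log2 fold changes with library size only were 1.55, 1.78, 1.39 and 1.45.

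Resident macrophage genes were called in both directions. Of 26 listed 17 were tested, with 5 higher and 7 lower (median -0.29, and 0.11 with library size only). The genes with the smallest p were abundant and fell: Slc11a1, a metal transporter of phagocyte vacuoles (-1.36), Gpnmb, a membrane glycoprotein (-1.49), and Slc40a1, the iron exporter (-1.58). The complement genes C1qb and C1qc, chosen after their values were seen, rose from 0.404 ± 0.134 to 3.63 ± 0.189 CPM and from 0.504 ± 0.28 to 2.16 ± 0.388 CPM, whereas C1qa was not called (0.274 ± 0.0964 and 0.342 ± 0.102 CPM, adjusted p = 0.566). Marco and Maf, chosen in the same way, were called higher with library size only (1.41 and 1.48) and on log2(TPM + 1) (1.61 and 1.43). Of the 26 genes 12 stayed under 1 TPM on average in both groups. Cd163, the hemoglobin scavenger receptor, had 0 counts in each Ctrl_MV library and 3, 1 and 4 counts in KD_MV, and Clec4f, a liver macrophage lectin, had 0 in all 6. Genes of alternative activation were lower in 5 of 8 tested cases and higher in 1, which was Arg1 (3.03, from 0.434 to 3.58 CPM), against 4 lower and 2 higher with library size only and 3 lower and 2 higher on log2(TPM + 1). Of this list Il10 (-1.45) and Clec7a (-1.30) fell.

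Transcription factors of the lineage were lower in 9 of 15 cases and higher in 1 (median -0.57, and -0.17 with library size only, when 7 were lower and 4 higher). On log2(TPM + 1), 4 were lower and 5 higher. Spi1, the gene of PU.1, went from 471 ± 1.66 CPM down to 259.3 ± 8.92 CPM, a fall called at an adjusted p of 7.60e-05 (-0.86 ± 0.09 (SE) on the log2 scale), and Cebpb fell as well (-0.94). Irf8, which directs precursors towards monocytes and dendritic cells, was the one that rose, with 259.2 ± 33.7 CPM in Ctrl_MV and 517.2 ± 21.4 CPM in KD_MV (adjusted p = 1.46e-04, 0.996 ± 0.12 (SE) on the log2 scale). B cells also use Irf8, and B-lineage genes were higher in 10 of 14 cases and lower in 1, with a summed level of 2256 to 2927 CPM in Ctrl_MV and 4800 to 5660 CPM in KD_MV. Their part in the Irf8 value was not tested.

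Genes of other cell types were called as well. Of 12 tested granulocyte-monocyte precursor genes 6 were higher and 4 lower (median 0.64), among them Mpo (4.15), Elane (4.01) and Ms4a3 (2.93), all at low means in Ctrl_MV (0.425 to 0.557 CPM). The summed level of the 12 genes was lower in KD_MV, at 1636 to 2811 CPM against 3889 to 4895 CPM. Mpo, Elane and Ms4a3, at means of 4.03 to 9.95 CPM in KD_MV, made up little of that sum. With library size only, 6 of the 12 were higher and 2 lower (median 1.04). Of the 20 neutrophil genes 12 were lower and 1 higher (median -0.70, and -0.30 with library size only, when 8 were lower and 4 higher), including Fpr1 (-1.74), Il1r2 (-1.46) and Mmp9 (-1.46). On log2(TPM + 1), 6 of the 20 were lower and 5 higher (median -0.10). Erythroid genes were lower in 11 of 15 cases, with 10 lower and 1 higher with library size only. Dendritic cell genes were lower in 7 and higher in 2 of 14 cases, against 6 lower and 4 higher with library size only and 3 lower and 4 higher of 9 on log2(TPM + 1). Basophil and mast cell genes were lower in 4 and higher in 3 of 10 cases, but 1 was lower and 4 higher with library size only, and 0 lower and 6 higher of 8 on log2(TPM + 1). Family relatives of the markers were higher in 5 and lower in 6 of 17 cases, against 7 higher and 6 lower with library size only and 9 higher and 4 lower of 16 on log2(TPM + 1). Of the 7 tested genes of ligands or partners of CCR2, CX3CR1 and VCAM-1, 1 was higher and 4 lower, against 2 higher and 1 lower with library size only and 1 higher and 0 lower of 6 on log2(TPM + 1). Hepatoma genes, those of the vesicle donors, were lower in 6 of 7 tested cases, with a summed level of 35.4 to 47.2 CPM in Ctrl_MV and 11.5 to 16.9 CPM in KD_MV. The part of these cell types in the marker values was not tested.

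**Figure D4:**
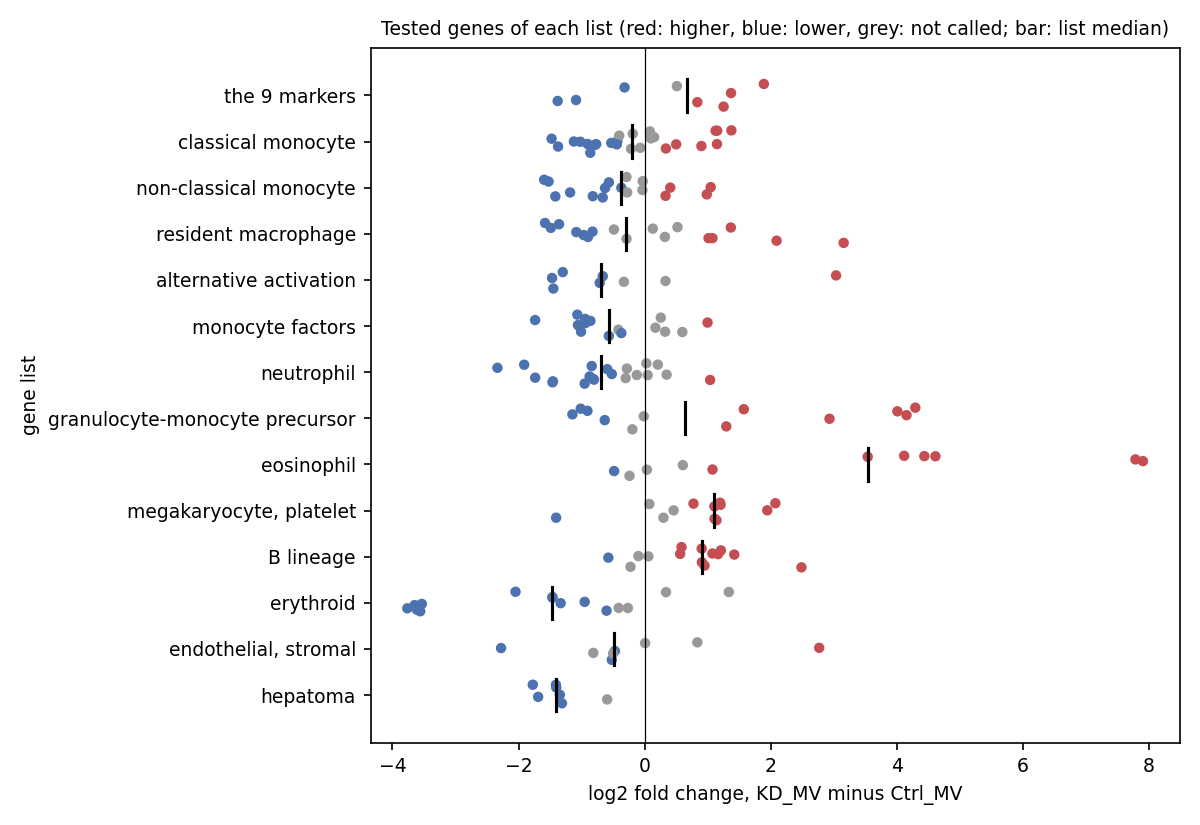
Log2 fold change (KD_MV minus Ctrl_MV) of each tested gene in the markers and in 13 further lists, coloured by call, with a bar at each list's median. The markers and the monocyte and macrophage lists hold calls on both sides of 0, and the eosinophil and erythroid lists lie mostly on one side each.

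Of the 7 called markers, 6 kept their direction and call in each of 18 alternative settings, and Ms4a6c did not. Ly6c2 gave log2 fold changes of 0.71 to 1.36, F13a1 of 1.76 to 2.29, Cx3cr1 of 1.04 to 1.66 and Vcam1 of 1.32 to 1.77 over 18 settings each.

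**Figure D5:**
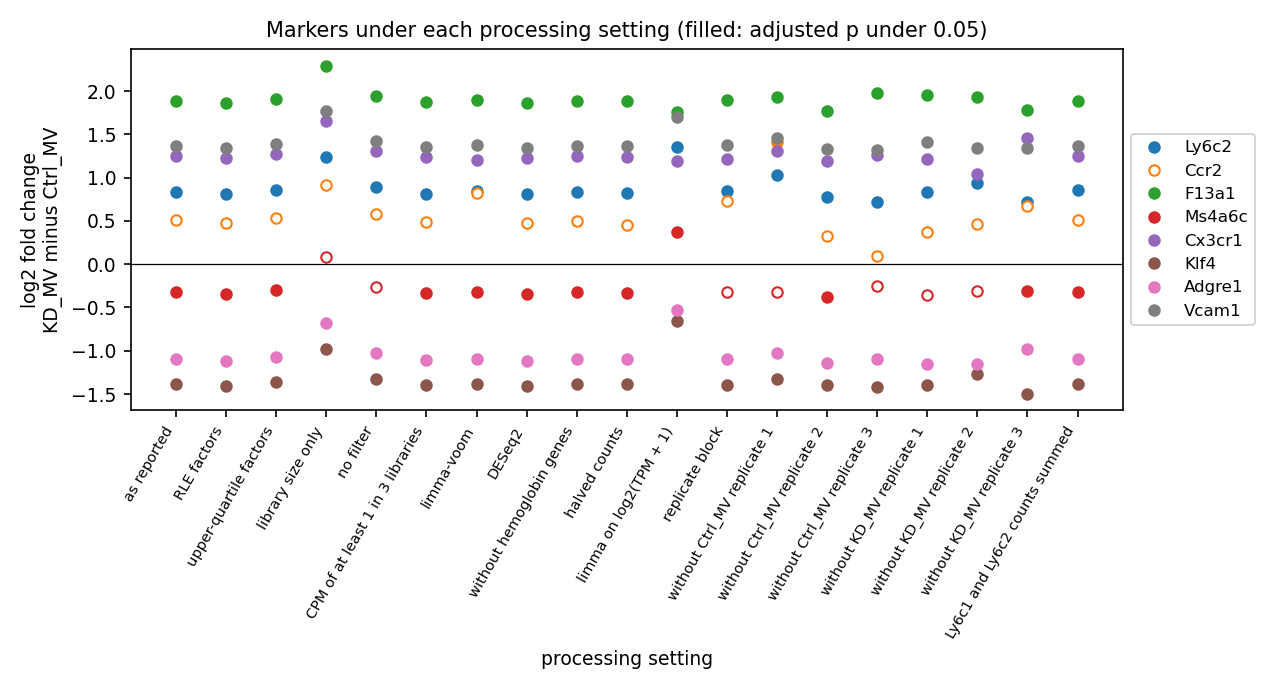
Log2 fold change of the 8 tested markers as reported and under up to 18 alternative settings (17 for Ccr2, which was too low for the TPM scale), filled where the adjusted p was under 0.05. Ms4a6c crosses 0 with library size only and on the TPM scale, and Ccr2 is called in a single setting, without Ctrl_MV replicate 1.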

How the data were processed

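Neutrophil RNA from bone marrow was read from stranded mRNA libraries, 3 per group. The authors trimmed with Trim Galore, aligned with Subread and counted with featureCounts on mm10, as far as the tools and build in the submitters' processing notes show, with no version named. The deposited table pairs each gene with its counts, its TPM and its FPKM, per the file headers. Its count columns hold raw whole numbers. The deposited TPM served for levels between genes, and the deposited FPKM, in proportion to TPM, went unused. TPM did not follow the counts by a fixed length per gene. From Ctrl_MV replicate 1 to 2, BE692007 went from 1323 to 1306 counts but from 19.8 to 25.5 TPM. Adgre1 went from 24604 to 21561 counts and from 324 to 270.2 TPM. A contrast between TPM and counts thus reflects more than scaling. Of counts from 1 to 20, 55.5 to 57.9% were even, and the cause was not tested. No 2 libraries of a group agreed within sampling noise (chi-square over its degrees of freedom 20.3 to 97.8).

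The test was edgeR's quasi-likelihood F test (version 4.0.16, R 4.3.3), two-sided, after filterByExpr (count minimum 10, total minimum 15) and TMM scaling. P-values were adjusted by Benjamini-Hochberg over the 16071 genes that passed, with calls at 0.05, after a trial on simulated counts. An SE here is |log2 fold change| divided by the root of F. Other settings were other scalings (RLE, upper quartile, none beyond library size), other filters (none, or 1 CPM in 3 libraries), DESeq2 1.42.0, limma 3.58.1 through voom or on log2(TPM + 1) for genes with a mean TPM of 1 or more, hemoglobin genes removed, counts divided by 2, a replicate block and each library removed in turn. Summing Ly6c1 with Ly6c2 was added after seeing the data. The members, the lists and the rule for named genes were chosen with earlier results of these data known. That rule takes all markers, the 3 called genes of smallest p in each list, and close relatives. Positions are those deposited, and overlaps and transcript windows come from GENCODE M21. Intervals cover counting error only, since PCR copies are not independent molecules.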

Additional observations from a re-analysis of the deposited data

How the results depend on the processing

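The 4 markers called higher and the 3 called lower changed by at most 1 each in any of the 18 settings: higher calls ran from 4 to 5 and lower calls from 2 to 3. Leaving out each library in turn gave the same ranges, with 7290 to 8710 genes called in all in place of 8459. Scaling and the measure changed the split of all calls: 52.8% were higher with TMM factors, 78.8% with library size only and 86.3% with limma on log2(TPM + 1), as the median gene moved from 0.03 to 0.43 and 0.52 on the log2 scale. Ms4a6c reversed in both of these, to 0.0844 and 0.374 on the log2 scale. Replicate numbers did not pair the libraries (correlations of same-numbered deviations -0.007, -0.079 and -0.054). The replicate block gave 7799 calls, with 4 markers higher and 2 lower, the lost call being Ms4a6c (log2 fold change -0.32). With that block, 1 basophil and mast cell gene was lower and 2 higher. Depth limits Mrc1, with at most 13 counts in a library. Most further lists held more higher and fewer lower calls with library size only than with TMM factors.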
